A study of Rattus norvegicus with 65 samples.

Results

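In cultured heart cells of newborn rats, 179 genes had at least doubled RNA levels after 24 h of doxorubicin (Dox) and reduced levels after 24 h of 5-fluorouracil (5FU), each against its own solvent control. They were chosen by those levels. Counts were scaled to CPM (the count of a gene in 1000000 counts of its library) and the median over the libraries of a group was taken. A gene was kept when its median was at least 1 CPM in both 24-hour controls, when its Dox_24 median was at least 2 times that of DMSO2_24, and when its 5FU_24 median was at most 0.6 times that of DMSO1_24. Of the 14554 genes in the table, 12619 reached the minimum in both controls. The Dox condition held for 1957 of them and the 5FU condition for 1667. The 179 genes that met both are 1.42% of the eligible genes, 9.15% of those that met the Dox condition and 10.7% of those that met the 5FU condition, while 15.5% of all eligible genes met the Dox condition and 13.2% the 5FU condition. For scale, 754 genes passed the 5FU condition with a Dox ratio of at most 0.5, and 47 had the opposite pattern at the inverse limits. The 24-hour ratios of Dox and of 5FU are therefore part of how the genes were picked, and they are given below as a description with no test.

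The libraries measure polyadenylated RNA of primary neonatal rat cardiomyocytes exposed to a drug or to its solvent, dimethyl sulfoxide (DMSO), for 6 or 24 h. 5FU was given at 10 mM with 1% DMSO, and its control DMSO1 held 1% DMSO. Doxorubicin was given at 1.25 uM and acetaminophen (Ace) at 2.5 mM, both with 0.25% DMSO, and the control DMSO2 held 0.25% DMSO. The cells were serum starved overnight before the exposure and came from several litters that were mixed, so the libraries of a group are wells of a shared preparation and the p-values below measure the spread between wells alone. There were 6 libraries in each of 5FU_6, 5FU_24, DMSO1_6, DMSO1_24 and Ace_6, and 7 in each of Dox_6, Dox_24, DMSO2_6, DMSO2_24 and Ace_24, where the names end in the hours of exposure. That makes 65 libraries in 10 groups. Since no 6-hour library entered the choice of genes, the 6-hour comparisons are the ones that were tested. Comparisons among the 24-hour groups, and of 24 with 6 h, share libraries with the choice and are given as levels.

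Doxorubicin inserts into DNA and traps topoisomerase on it, and its damage to heart muscle limits its use in cancer treatment. 5FU is a pyrimidine analogue that cells turn into nucleotides which enter RNA and DNA and block thymidylate synthesis, and it too can harm the heart. Acetaminophen is a common painkiller that is known mainly for injury to the liver.

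Library totals ran from 14332827 to 25738297 counts, with the lowest in DMSO1_24 and the highest in Dox_24. Group medians ran from 16492469 in Dox_24 to 20909342.5 in DMSO1_6. No library held fewer than 10 counts for 137 of the 179 genes, compared with 11908 of all 14554. All 179 stayed in the analysis. 3 genes held libraries with 0 counts beside libraries with far higher counts of the same group, and their values are uncertain: Elovl6, with 0 to 110 counts in DMSO1_6, and the unnamed Entrez genes 100909655, with 0 to 224 in Ace_24, and 100910438, with 0 to 110 in DMSO2_6.

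The label of the cells was compared with marker genes of cardiomyocytes. Of 6 such markers 5 were matched in the table, Myh6 was the most abundant, and their summed level had a median of 34991 CPM in DMSO2_6 and 37520 CPM in DMSO2_24. It was 42836 in DMSO1_6, 37281 in 5FU_6, 36392 in Ace_6, 35199 in Dox_6, 33139 in DMSO1_24, 20034 in 5FU_24, 38862 in Ace_24 and 12113 in Dox_24. The median marker was lowered more at 24 h than these sums, with a median ratio to the control over the 5 markers of 0.076 in Dox and 0.484 in 5FU. The cells were a mixture all the same. Fibroblast markers (6 of 6 matched, Col1a1 the most abundant) summed to 11550 CPM in DMSO1_24, 4513 in 5FU_24, 10949 in DMSO2_24, 6031 in Ace_24 and 2710 in Dox_24. The same sum at 6 h was 6908 in DMSO1_6, 6379 in 5FU_6, 9901 in DMSO2_6, 7533 in Ace_6 and 6493 in Dox_6. Fibroblast and cardiomyocyte sums were thus below their controls in both 24-hour groups that define the 179 genes. Endothelial markers (5 of 6 matched, Cdh5 the most abundant) summed to 219 CPM in DMSO1_24, 136 in 5FU_24, 252 in DMSO2_24, 165 in Ace_24 and 32.3 in Dox_24. Their 6-hour sums were 135 in DMSO1_6, 120 in 5FU_6, 208 in DMSO2_6, 150 in Ace_6 and 76 in Dox_6. In cultures of this kind, fewer cells of a type and less RNA per cell cannot be told apart. Erythroid markers (4 of 6 matched, Hba-a1 the most abundant) went the other way in Dox_24, at 114 CPM with 19.6 in DMSO2_24, and stood at 49.5 in 5FU_24 with 25 in DMSO1_24. The part that these markers of cell types have in the levels of the 179 genes was not tested.

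Some libraries stood apart from the rest of their group. The columns of the table carry no replicate numbers, so libraries are numbered here by the order of the columns within a group, and library 1 need not be the sample whose title ends in 1. In 6 of them the correlation of log2(CPM + 1) with the median of the other libraries of the group was the lowest of the 65. It was 0.990 for library 1 of DMSO1_24, and 0.991 for library 1 of 5FU_6 and for library 7 of Dox_24. For library 3 of DMSO1_6 it was 0.992, and for libraries 4 and 7 of Dox_6 it was 0.993. Between 86 and 189 genes in each were more than 2-fold off the rest of the group. Library 1 of DMSO1_24 lay below all the others of its group for 122 of the 179 genes, at a median of 0.732 times the rest. Library 7 of Dox_24, the one with the most counts, lay below all others for 73 and above all others for 36. With all 6 left out, an alternative chosen after seeing the data, the same rule picked 199 genes, of which 172 were among the 179. Their tested counts without those libraries are given with the 6-hour results.

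At 24 h the selection fixed the outer positions. The Dox_24 median was 2.01 to 27.1 times that of DMSO2_24, with a median ratio of 3.20 over the 179 genes and 0.964 over all eligible genes. The 5FU_24 median was 0.0652 to 0.598 times that of DMSO1_24 (the lowest being the uncertain gene 100909655, followed by Adm2 at 0.0955), with a median of 0.497, while the median over all eligible genes was close to 1. Among the 5 groups of that time, Dox_24 was the highest for 177 of the genes and 5FU_24 the lowest for 176. The remaining groups were not used, or used only as a base. Ace_24 stood at 0.285 to 2.73 times DMSO2_24, with a median ratio of 0.867 (1.04 over all eligible genes), below it for 114 genes and above it for 65. The ratio of DMSO1_24 to DMSO2_24 had a median of 0.967 and a highest value of 1.85. From 6 to 24 h in the controls, the median ratio was 0.998 in DMSO2 and 1.07 in DMSO1, with single genes between 0.168 and 5.22.

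**Figure D1:**
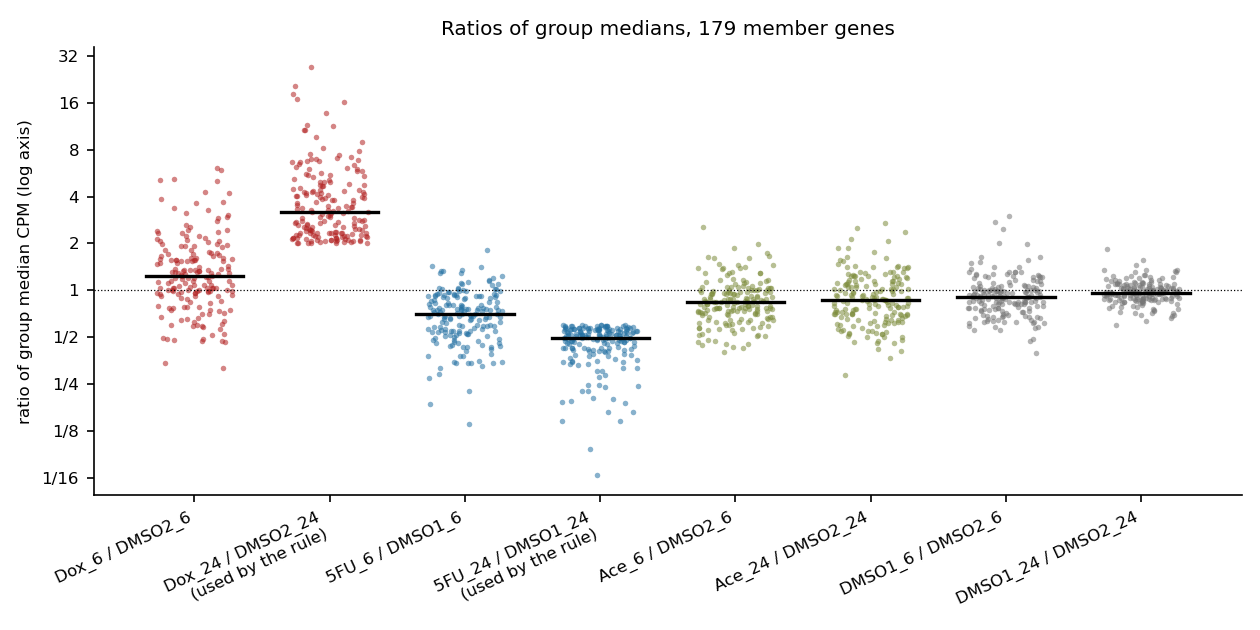
Ratios of group median CPM for each of the 179 genes on a log axis, drug over control for Dox, 5FU and Ace and DMSO1 over DMSO2, at 6 and 24 h; each point is a gene and black bars are medians over the genes. The 24-hour Dox ratios (median 3.20) and 5FU ratios (median 0.497) were used to choose the genes, while the 6-hour ratios (medians 1.23 and 0.705) were not.

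At 6 h the question is how far the pattern was already there. The test was edgeR's quasi-likelihood F-test across all 14554 genes, with Benjamini-Hochberg adjustment over all of them and a threshold of 0.01. Under Dox, 97 of the 179 genes were higher than in DMSO2_6 (54.2%, with 31.5% of all genes) and 19 were lower (10.6%, with 32.7% of all genes). The median log2 fold change was 0.41 for the 179 genes and 0.00 for all genes. Leaving out the 6 libraries that stood apart gave 102 higher and 17 lower. Under 5FU, 90 were lower than in DMSO1_6 (50.3%, with 24.5% of all genes) and 5 were higher (2.79%, with 23.4% of all genes). The median log2 fold change there was -0.45, compared with 0.00 for all genes. With those 6 left out, 93 were lower and 4 higher. With all libraries, 84 passed in neither direction in 5FU.

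The pair of effects was then read gene by gene, since Dox_6 and 5FU_6 have separate controls. There were 45 genes higher in Dox and lower in 5FU (25.1%, with 4.56% of all genes). Another 14 were lower in both (7.82%, with 13.2% of all genes) and 5 were higher in both (2.79%, with 11.8% of all genes). A direct test of the Dox effect minus the 5FU effect put 123 genes above 0 (68.7%, with 22% of all genes) and 4 below it (2.23%, with 24% of all genes), with a median difference of 0.90 on the log2 scale and 0.00 over all genes. These counts were 124 and 3 (Prph, Slc2a13 and Pcdh17) without the 6 libraries. The 4 genes below 0 were Pcdh17, Sall1, Slc2a13 and Lfng, and the count became 2 (Slc2a13 and Pcdh17) without library 3 of 5FU_6 or library 5 of DMSO2_6. For Pcdh17 the difference was -0.71, while the control DMSO1_6 was itself lower than DMSO2_6, with a log2 fold change of -0.76. For comparison, of the 1778 genes that passed only the Dox condition at 24 h, 75.1% were higher in Dox at 6 h and 35.7% were higher in 5FU. Of the 1488 that passed only the 5FU condition, 48.1% were lower in 5FU and 50.5% were lower in Dox at 6 h. Differences between these sets of genes were not tested.

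**Figure D2:**
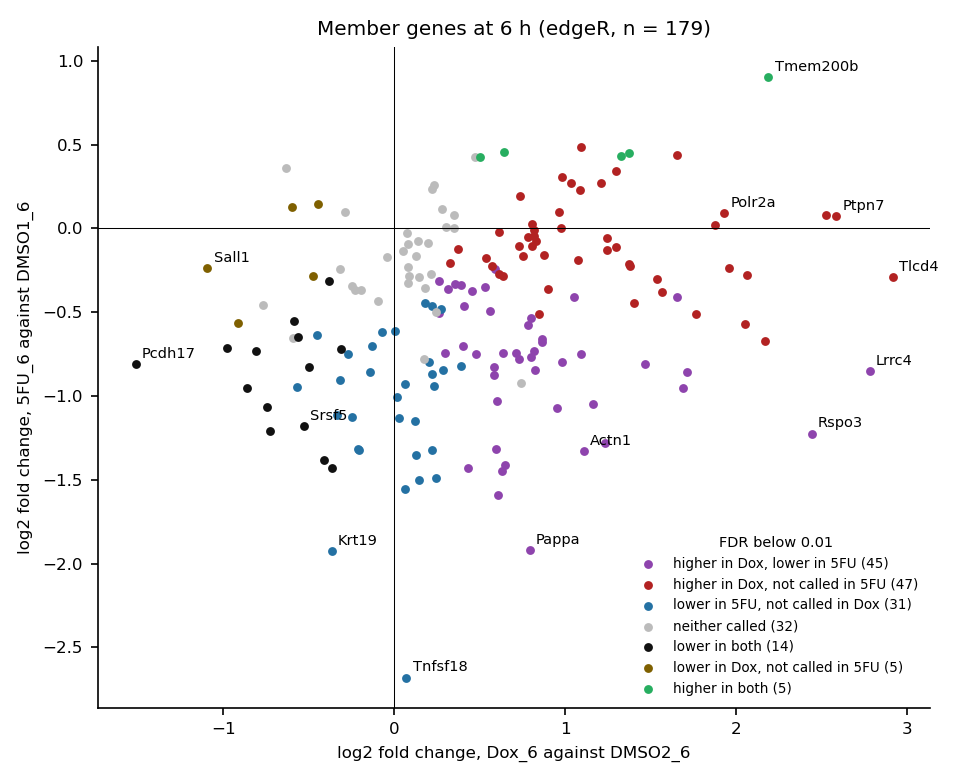
Log2 fold changes at 6 h of the 179 genes, Dox_6 against DMSO2_6 on the horizontal axis and 5FU_6 against DMSO1_6 on the vertical axis; each point is a gene, coloured by whether edgeR's adjusted p was below 0.01 in each comparison. The 45 genes higher in Dox and lower in 5FU fill the lower right, and 14 genes lie lower in both.

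The genes are described below by kind. Counts by kind are small and several lie near the shares over all genes, which were 31.5% higher and 32.7% lower in Dox, 23.4% higher and 24.5% lower in 5FU, 16.5% higher and 15.2% lower in Ace, and 22% above 0 for the difference. The transcription machinery and RNA processing gave 9 of the genes. Polr2a (Entrez gene 363633) encodes the largest subunit of RNA polymerase II, the enzyme that makes messenger RNA. At 24 h its lowest, median and highest CPM were 92.7, 130 and 151 in DMSO2_24, 140, 159 and 191 in Ace_24 and 1169, 1389 and 1514 in Dox_24, and on the 5FU side 93.7, 132 and 178 in DMSO1_24 and 63.6, 78.4 and 88.4 in 5FU_24. Every Dox_24 library lay far above the highest control, whereas the 5FU_24 ratio of 0.596 lies just inside the limit of 0.6. At 6 h the values were 113, 196 and 234 in DMSO2_6, 145, 254 and 315 in Ace_6, 468, 641 and 782 in Dox_6, 91.3, 155 and 192 in DMSO1_6 and 103, 147 and 199 in 5FU_6. Polr2a rose in Dox at 6 h, by a log2 fold change of 1.93 ± 0.15 (SE, above the control median in 7 of 7 libraries, adjusted p = 1.8e-17). In 5FU at 6 h the change of 0.09 ± 0.16 (SE, above the control median in 3 of 6 libraries, adjusted p = 0.65) did not pass the threshold, which does not show that there was none.

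Taf4b, a variant subunit of the TFIID complex that starts transcription, had a median of 6.82 CPM in DMSO2_24 and 46.7 in Dox_24. At 6 h it rose in Dox by 1.66 ± 0.07 (SE, above the control median in 7 of 7 libraries, adjusted p = 3.6e-31) and fell in 5FU with a log2 fold change of -0.41 ± 0.08 (SE, below the control median in 6 of 6 libraries, adjusted p = 5.9e-06). It also rose in Ace, by 0.75 ± 0.07 (SE, above the control median in 6 of 6 libraries, adjusted p = 2.3e-13), which few of the 179 genes did. Caprin2, an RNA-binding protein, had the same 3 directions, with log2 fold changes of 0.45 ± 0.09 (SE, above the control median in 7 of 7 libraries, adjusted p = 5.4e-06) in Dox, -0.37 ± 0.10 (SE, below the control median in 6 of 6 libraries, adjusted p = 0.00074) in 5FU and 0.70 ± 0.09 (SE, above the control median in 6 of 6 libraries, adjusted p = 1.5e-09) in Ace.

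Srsf5 took another course. It encodes a serine- and arginine-rich splicing factor. At 6 h its lowest, median and highest CPM were 155, 173 and 179 in DMSO2_6, 232, 242 and 251 in Ace_6 and 96.3, 103 and 120 in Dox_6, with 159, 171 and 182 in DMSO1_6 and 56.6, 75.3 and 80 in 5FU_6. It fell in Dox with a log2 fold change of -0.53 ± 0.07 (SE, below the control median in 7 of 7 libraries, adjusted p = 3.7e-09) and in 5FU with one of -1.18 ± 0.08 (SE, below the control median in 6 of 6 libraries, adjusted p = 1e-19), and it rose in Ace by 0.54 ± 0.08 (SE, above the control median in 6 of 6 libraries, adjusted p = 1.9e-08). At 24 h it stood at 132, 160 and 171 in DMSO2_24, 183, 203 and 222 in Ace_24, 298, 353 and 392 in Dox_24, 105, 168 and 197 in DMSO1_24 and 82.6, 87.1 and 101 in 5FU_24. The Dox libraries were thus under their controls at 6 h and over them at 24 h. Of this kind, 7 of 9 genes were higher in Dox at 6 h and 1 was lower, 5 were lower in 5FU, 4 were higher in Ace, and the difference between the Dox and 5FU effects was above 0 for all 9.

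Secreted signals and proteins that modulate them were 23 genes, the most of any named kind, though kinds were not counted over all genes. At 6 h 12 were higher and 2 lower in Dox, 16 were lower in 5FU, and the difference was above 0 for 19. Nptx1 (Entrez gene 266777), neuronal pentraxin, a secreted protein that gathers glutamate receptors at synapses, had the widest 24-hour gap of all 179 genes between the Dox and 5FU ratios. Its lowest, median and highest CPM at 24 h were 1.96, 3.13 and 3.78 in DMSO2_24, 1.44, 1.56 and 2.41 in Ace_24, 43.4, 64.3 and 72.5 in Dox_24, 2.19, 2.34 and 3.55 in DMSO1_24 and 0.259, 0.643 and 0.735 in 5FU_24. At 6 h they were 2.5, 3.2 and 3.94 in DMSO2_6, 2.18, 2.53 and 3.23 in Ace_6, 3.73, 4.09 and 5.7 in Dox_6, 2.11, 2.38 and 3.01 in DMSO1_6 and 0.708, 0.827 and 1.35 in 5FU_6. The early change was small beside the later level in Dox, and it was already wide in 5FU. Nptx1 rose in Dox at 6 h by a log2 fold change of 0.59 ± 0.13 (SE, above the control median in 7 of 7 libraries, adjusted p = 5.3e-05) and fell in 5FU with one of -1.32 ± 0.18 (SE, below the control median in 6 of 6 libraries, adjusted p = 5.2e-09).

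Slit2, the axon guidance ligand of Robo receptors, had a lowest, median and highest CPM of 22.8, 24.3 and 26.2 in DMSO2_24, 13.2, 15 and 15.9 in Ace_24, 99.3, 120 and 135 in Dox_24, 14.5, 20.5 and 24.8 in DMSO1_24 and 3.3, 4.09 and 4.83 in 5FU_24. At 6 h it was at 10.2, 10.3 and 13.8 in DMSO2_6, 9.74, 10.8 and 12.6 in Ace_6, 10.9, 12.5 and 13.6 in Dox_6, 7.7, 9.66 and 10.5 in DMSO1_6 and 2.6, 4.92 and 5.47 in 5FU_6. At that time Slit2 fell in 5FU with a log2 fold change of -0.94 ± 0.11 (SE, below the control median in 6 of 6 libraries, adjusted p = 1.6e-10), whereas its Dox change of 0.23 ± 0.09 (SE, above the control median in 7 of 7 libraries, adjusted p = 0.027) missed the threshold. Without the 6 libraries that stood apart the Slit2 change in Dox was 0.29 and passed. Pappa, a protease that frees insulin-like growth factors from their binding proteins, fell in 5FU at 6 h with a log2 fold change of -1.92 ± 0.22 (SE, below the control median in 6 of 6 libraries, adjusted p = 4.2e-11) and rose in Dox by 0.79 ± 0.17 (SE, above the control median in 6 of 7 libraries, adjusted p = 4.9e-05). Its median was 5.55 CPM in DMSO1_6, 1.24 in 5FU_6, 5.58 in DMSO2_6, 3.32 in Ace_6 and 7.55 in Dox_6, and at 24 h 8.16, 1.55, 8.38, 3.92 and 23.2 in the same order. Pappa libraries of 5FU_6 reached at most 2.03 CPM, under the lowest of DMSO1_6 at 4.36.

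Vegfa, the growth factor of blood vessels, was among the most abundant of the 179 genes. At 6 h its lowest, median and highest CPM were 138, 148 and 160 in DMSO2_6, 150, 175 and 185 in Ace_6, 236, 287 and 587 in Dox_6, 145, 159 and 254 in DMSO1_6 and 114, 128 and 299 in 5FU_6. At 24 h they were 302, 315 and 343 in DMSO2_24, 257, 261 and 282 in Ace_24, 511, 744 and 813 in Dox_24, 263, 283 and 304 in DMSO1_24 and 129, 144 and 148 in 5FU_24. Vegfa rose in Dox at 6 h by a log2 fold change of 1.24 ± 0.15 (SE, above the control median in 7 of 7 libraries, adjusted p = 3.4e-11). In 5FU at 6 h the change was -0.06 ± 0.16 (SE, below the control median in 5 of 6 libraries, adjusted p = 0.77), and it rests on a single library. Library 1 of 5FU_6 held 299 CPM while the others held at most 140, and without that library the Vegfa log2 fold change was -0.41 and passed the threshold. Of its relatives among the 179 genes, Vegfc had medians of 4.54 CPM in DMSO2_24, 10.8 in Dox_24, 3.47 in DMSO1_24 and 1.76 in 5FU_24. Pgf, placental growth factor, had 3.82, 12, 2.6 and 1.38 in those groups.

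Several of the secreted signals belong to the Wnt and to the transforming growth factor families. Rspo3, which strengthens Wnt signals, was low in all controls. Its lowest, median and highest CPM at 6 h were 0.468, 0.801 and 0.962 in DMSO2_6, 0.557, 0.822 and 1.51 in Ace_6, 1.39, 4.03 and 6.26 in Dox_6, 0.819, 1.04 and 1.26 in DMSO1_6 and 0.0946, 0.468 and 0.665 in 5FU_6. Rspo3 rose in Dox by a log2 fold change of 2.44 ± 0.26 (SE, above the control median in 7 of 7 libraries, adjusted p = 7.3e-13) and fell in 5FU with one of -1.23 ± 0.34 (SE, below the control median in 6 of 6 libraries, adjusted p = 0.0014). At 24 h its medians were 1.22 in DMSO2_24, 0.68 in Ace_24, 7.76 in Dox_24, 1.07 in DMSO1_24 and 0.552 in 5FU_24. Wnt4, a Wnt ligand, had 6-hour values of 10.2, 10.9 and 11.8 in DMSO2_6, 6.12, 6.69 and 8.51 in Ace_6, 21.9, 25.4 and 30.6 in Dox_6, 5.69, 7.34 and 9.07 in DMSO1_6 and 3.93, 6.18 and 7.31 in 5FU_6, so that its Dox_6 libraries lay above all those of DMSO2_6. It rose in Dox by 1.38 ± 0.10 (SE, above the control median in 7 of 7 libraries, adjusted p = 7.9e-19), whereas the 5FU change of -0.21 ± 0.12 (SE, below the control median in 6 of 6 libraries, adjusted p = 0.13) did not pass. At 24 h Wnt4 medians were 7.06 in DMSO2_24, 3.7 in Ace_24, 16.9 in Dox_24, 5.37 in DMSO1_24 and 3.15 in 5FU_24.

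Bmp2, a bone morphogenetic protein, rose in Dox at 6 h by a log2 fold change of 1.38 ± 0.13 (SE, above the control median in 7 of 7 libraries, adjusted p = 3e-15). Its 5FU change of -0.22 ± 0.14 (SE, below the control median in 6 of 6 libraries, adjusted p = 0.16) did not pass, but without the 6 libraries that stood apart the Bmp2 value was -0.38 and passed. Bmp2 medians at 24 h were 5.73 CPM in DMSO2_24, 4.52 in Ace_24, 22.7 in Dox_24, 6.02 in DMSO1_24 and 2.66 in 5FU_24. Inhba, the subunit of activin A, went against it early. It fell in Dox at 6 h with a log2 fold change of -0.41 ± 0.11 (SE, below the control median in 7 of 7 libraries, adjusted p = 0.00056) and in 5FU with one of -1.38 ± 0.12 (SE, below the control median in 6 of 6 libraries, adjusted p = 1.5e-15). Its medians at 24 h were nevertheless 10 CPM in DMSO2_24, 6.95 in Ace_24, 23.3 in Dox_24, 6.95 in DMSO1_24 and 3.86 in 5FU_24.

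Other secreted proteins were seen at low counts. Adm2, a peptide of the calcitonin family also called intermedin, had at 24 h a lowest, median and highest CPM of 0.695, 1.26 and 2.22 in DMSO2_24, 0.574, 0.63 and 0.923 in Ace_24, 2.02, 3.21 and 4.91 in Dox_24, 0.617, 1.23 and 1.53 in DMSO1_24 and 0, 0.118 and 0.259 in 5FU_24. Adm2 fell in 5FU at 6 h with a log2 fold change of -1.50 ± 0.27 (SE, below the control median in 6 of 6 libraries, adjusted p = 2e-06), from a median of 2.24 CPM in DMSO1_6 to 0.652 in 5FU_6. Its Dox_24 and DMSO2_24 libraries overlapped. Tmeff2, a membrane protein with follistatin-like domains that can be shed, had medians of 1.95 CPM in DMSO2_24, 21 in Dox_24, 1.5 in DMSO1_24 and 0.521 in 5FU_24. At 6 h Tmeff2 was under 1 CPM in the median of all 5 groups, and neither drug's change passed the threshold. Tnfsf18, a ligand of the tumour necrosis factor family, had the strongest 5FU decrease of the 179 genes at 6 h, with a log2 fold change of -2.68 ± 0.31 (SE, below the control median in 6 of 6 libraries, adjusted p = 3.6e-11), from a median of 2.31 CPM to 0.322.

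Phosphodiesterases, kinases, phosphatases and feedback regulators of signalling made up 18 genes. Of these 15 were higher and 1 lower in Dox at 6 h, 11 were lower and 1 higher in 5FU, and the difference was above 0 for 15 and below it for 1. Nrarp, a small ankyrin protein that dampens Notch signals, had a lowest, median and highest CPM at 24 h of 6.42, 8.31 and 9.43 in DMSO2_24, 4.32, 5.18 and 7.28 in Ace_24, 107, 134 and 159 in Dox_24, 5.7, 6.88 and 7.28 in DMSO1_24 and 2.09, 3.59 and 4.83 in 5FU_24. Its 6-hour values were 2.33, 3.53 and 3.75 in DMSO2_6, 2.59, 2.99 and 3.13 in Ace_6, 7.69, 9.23 and 11.6 in Dox_6, 1.92, 2.26 and 3.14 in DMSO1_6 and 1.36, 1.56 and 1.93 in 5FU_6. Nrarp rose in Dox at 6 h by a log2 fold change of 1.77 ± 0.13 (SE, above the control median in 7 of 7 libraries, adjusted p = 3e-19). The 5FU change of -0.51 ± 0.18 (SE, below the control median in 6 of 6 libraries, adjusted p = 0.013) fell just short of the threshold, and it passed with library 1 or 3 of DMSO1_6 or library 5 of 5FU_6 left out, at -0.56, -0.57 and -0.58. Ptpn7, a phosphatase that acts on mitogen-activated protein kinases, went from a median of 3.33 CPM in DMSO2_6 to 17.1 in Dox_6, a log2 fold change of 2.58 ± 0.11 (SE, above the control median in 7 of 7 libraries, adjusted p = 3.6e-31). The 5FU change was 0.07 ± 0.14 (SE, above the control median in 2 of 6 libraries, adjusted p = 0.68). Ptpn7 at 24 h had medians of 4.11 in DMSO2_24, 4.7 in Ace_24, 69.6 in Dox_24, 4 in DMSO1_24 and 2.24 in 5FU_24.

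3 phosphodiesterases, which break down cyclic nucleotides, were among these 18 genes, and each was higher in Dox and lower in 5FU at 6 h. For Pde5a, which acts on cyclic GMP and is the target of sildenafil, the log2 fold changes were 0.56 ± 0.12 (SE, above the control median in 7 of 7 libraries, adjusted p = 2e-05) in Dox and -0.49 ± 0.13 (SE, below the control median in 6 of 6 libraries, adjusted p = 0.0014) in 5FU. For Pde3b, which acts on cyclic AMP, they were 0.48 ± 0.10 (SE, above the control median in 7 of 7 libraries, adjusted p = 3.7e-05) in Dox and -0.75 ± 0.12 (SE, below the control median in 6 of 6 libraries, adjusted p = 1.2e-07) in 5FU. For Pde8a they were 0.26 ± 0.08 (SE, above the control median in 4 of 7 libraries, adjusted p = 0.0035) in Dox and -0.51 ± 0.09 (SE, below the control median in 6 of 6 libraries, adjusted p = 3.6e-06) in 5FU. The Pde8a call in Dox was a weak one, since it was lost without library 1 or 3 of DMSO2_6, at 0.24 and 0.22, and without library 1 or 4 of Dox_6, at 0.24 and 0.20. With scaling by library size alone the Pde8a change was 0.11 and did not pass, and with the compared groups alone it was 0.27 and did not pass. Dusp4, a phosphatase that switches off mitogen-activated protein kinases, had medians of 17.8 CPM in DMSO2_24, 16.1 in Ace_24, 116 in Dox_24, 16.1 in DMSO1_24 and 5.78 in 5FU_24. It fell in 5FU at 6 h with a log2 fold change of -1.45 ± 0.10 (SE, below the control median in 6 of 6 libraries, adjusted p = 1.1e-19) and rose in Dox by 0.63 ± 0.08 (SE, above the control median in 6 of 7 libraries, adjusted p = 6.8e-10). Dok2, an adaptor that docks on activated tyrosine kinases, did likewise, with 0.98 ± 0.13 (SE, above the control median in 7 of 7 libraries, adjusted p = 4.7e-10) in Dox and -0.80 ± 0.16 (SE, below the control median in 6 of 6 libraries, adjusted p = 1.4e-05) in 5FU, and medians at 24 h of 5.64 CPM in DMSO2_24 and 26.4 in Dox_24.

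Errfi1, a feedback inhibitor of the epidermal growth factor receptor, was 1 of the 5 genes that were higher in 5FU at 6 h. Tmem200b, Gls2 and Inka1 were among them too, and each was also higher in Dox, although the Inka1 call in Dox was lost with scaling by library size alone (0.35). Errfi1 rose in 5FU by a log2 fold change of 0.46 ± 0.08 (SE, above the control median in 6 of 6 libraries, adjusted p = 1.5e-06) and in Dox by 0.64 ± 0.07 (SE, above the control median in 7 of 7 libraries, adjusted p = 8.8e-12). The Errfi1 call in 5FU was kept with any single library left out. Gls2, a glutaminase, rose in 5FU by 0.45 ± 0.14 (SE, above the control median in 6 of 6 libraries, adjusted p = 0.0039), which no longer passed without library 1 of 5FU_6 (0.31) or without library 1, 5 or 6 of DMSO1_6 (0.41, 0.40 and 0.39). Inka1, an inhibitor of a p21-activated kinase, had 0.42 ± 0.14 (SE, above the control median in 5 of 6 libraries, adjusted p = 0.0067) in 5FU, and that call was lost without library 1 or 2 of 5FU_6 (0.36 and 0.33) or without library 1, 4 or 6 of DMSO1_6 (0.36, 0.43 and 0.39). Tmem200b, a membrane protein of little known role, had 0.90 ± 0.29 (SE, above the control median in 5 of 6 libraries, adjusted p = 0.0054) in 5FU and lost its call without library 4 of 5FU_6 (0.70) or library 1 or 3 of DMSO1_6 (0.77 and 0.83). The count of 5 therefore became 3 without library 1 of 5FU_6 and 2 without library 1 of DMSO1_6.

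Actn1, an alpha-actinin that cross-links actin filaments, had at 6 h a lowest, median and highest CPM of 172, 205 and 222 in DMSO2_6, 140, 150 and 165 in Ace_6, 143, 420 and 508 in Dox_6, 185, 508 and 623 in DMSO1_6 and 122, 173 and 249 in 5FU_6. The level in 5FU_6 was close to that in DMSO2_6, and its own control DMSO1_6 was the high group. Actn1 rose in Dox by a log2 fold change of 1.11 ± 0.16 (SE, above the control median in 6 of 7 libraries, adjusted p = 6.2e-09), fell in 5FU with one of -1.33 ± 0.17 (SE, below the control median in 6 of 6 libraries, adjusted p = 8.7e-10), and was higher in DMSO1_6 than in DMSO2_6 by 1.30 ± 0.16 (SE, above the control median in 5 of 6 libraries, adjusted p = 8.1e-09). At 24 h the controls were alike, with 117, 131 and 135 in DMSO2_24 and 89.2, 121 and 129 in DMSO1_24, beside 101, 115 and 121 in Ace_24, 302, 343 and 385 in Dox_24 and 64.7, 68 and 72.8 in 5FU_24.

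Tagln, transgelin, an actin-binding protein typical of smooth muscle, showed the same split of the 6-hour controls. Its values were 214, 301 and 446 in DMSO2_6, 224, 276 and 342 in Ace_6, 408, 838 and 1071 in Dox_6, 338, 898 and 1207 in DMSO1_6 and 506, 688 and 827 in 5FU_6. It rose in Dox by a log2 fold change of 1.54 ± 0.27 (SE, above the control median in 7 of 7 libraries, adjusted p = 8.7e-07) and was higher in DMSO1_6 than in DMSO2_6 by 1.55 ± 0.28 (SE, above the control median in 6 of 6 libraries, adjusted p = 1.5e-05), whereas the 5FU change of -0.30 ± 0.28 (SE, below the control median in 6 of 6 libraries, adjusted p = 0.37) did not pass. At 24 h Tagln was at 144, 157 and 256 in DMSO2_24, 60.8, 168 and 312 in Ace_24, 74.8, 684 and 817 in Dox_24, 190, 248 and 357 in DMSO1_24 and 94.1, 122 and 194 in 5FU_24. Library 7 of Dox_24 held 74.8 CPM, below every DMSO2_24 library, while the other 6 held 571 or more. Lmcd1, a protein with LIM domains that curbs GATA factors, shared the split of the controls and the Dox increase but not the 5FU result, with 6-hour medians of 27.4 in DMSO2_6, 25.8 in Ace_6, 65.3 in Dox_6, 75 in DMSO1_6 and 28.4 in 5FU_6. Lmcd1 had log2 fold changes of 1.23 ± 0.26 (SE, above the control median in 6 of 7 libraries, adjusted p = 2.9e-05) in Dox, -1.28 ± 0.28 (SE, below the control median in 6 of 6 libraries, adjusted p = 7.4e-05) in 5FU and 1.45 ± 0.27 (SE, above the control median in 5 of 6 libraries, adjusted p = 2.6e-05) between the controls. Its 24-hour medians were 11.8 in DMSO2_24, 12.3 in Ace_24, 44.7 in Dox_24, 12.6 in DMSO1_24 and 6.11 in 5FU_24.

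Markers of smooth muscle and pericytes were summed for comparison. All 6 were matched, Acta2 was the most abundant, and their sum had a median of 954 CPM in DMSO2_6, 653 in Ace_6, 1866 in Dox_6, 1935 in DMSO1_6 and 1352 in 5FU_6. At 24 h it was 759 in DMSO2_24, 492 in Ace_24, 853 in Dox_24, 681 in DMSO1_24 and 482 in 5FU_24. The sum is led by Acta2, and the 6 genes were split: at 6 h 3 were higher and 2 lower in Dox, 1 was higher and 1 lower in 5FU, and their median 24-hour Dox ratio was 0.873. Single libraries were low in this sum and in the genes alike. The lowest Dox_24 sum, 290, came from library 7, the one with low Tagln. Library 7 of Dox_6 had a sum of 707 (the others at least 1563), with Actn1 at 143.5 CPM and Tagln at 408. Library 3 of DMSO1_6 had a sum of 862 (the others at least 1613), with Actn1 at 184.5 CPM and Tagln at 338. Without library 7 of Dox_6 the log2 fold changes in Dox were 1.25 for Actn1, 1.66 for Tagln and 1.40 for Lmcd1, and without library 3 of DMSO1_6 those in 5FU were -1.50, -0.48 and -1.47, on the same side of the threshold as with all libraries. The part of these markers in the Actn1, Tagln and Lmcd1 results was not tested.

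Tiam1, which activates the GTPase Rac, went down first in Dox. Its 6-hour medians were 11.4 CPM in DMSO2_6, 16.7 in Ace_6, 5.47 in Dox_6, 11.4 in DMSO1_6 and 6.78 in 5FU_6. It fell in Dox with a log2 fold change of -0.98 ± 0.11 (SE, below the control median in 7 of 7 libraries, adjusted p = 3.7e-12) and in 5FU with one of -0.72 ± 0.11 (SE, below the control median in 6 of 6 libraries, adjusted p = 2.1e-07), and rose in Ace by 0.50 ± 0.10 (SE, above the control median in 6 of 6 libraries, adjusted p = 6.1e-05). At 24 h the medians were 9.03 in DMSO2_24, 11.5 in Ace_24, 19.8 in Dox_24, 9.3 in DMSO1_24 and 4.55 in 5FU_24. Rnd3 kept 1 direction per drug. Its log2 fold changes at 6 h were 0.31 ± 0.07 (SE, above the control median in 6 of 7 libraries, adjusted p = 6.1e-05) in Dox and -0.36 ± 0.08 (SE, below the control median in 6 of 6 libraries, adjusted p = 4.3e-05) in 5FU, and its 24-hour medians were 54.8 CPM in DMSO2_24, 235 in Dox_24, 52.8 in DMSO1_24 and 25.9 in 5FU_24. With scaling by library size alone the Rnd3 change in Dox was 0.16 and no longer passed.

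**Figure D3:**
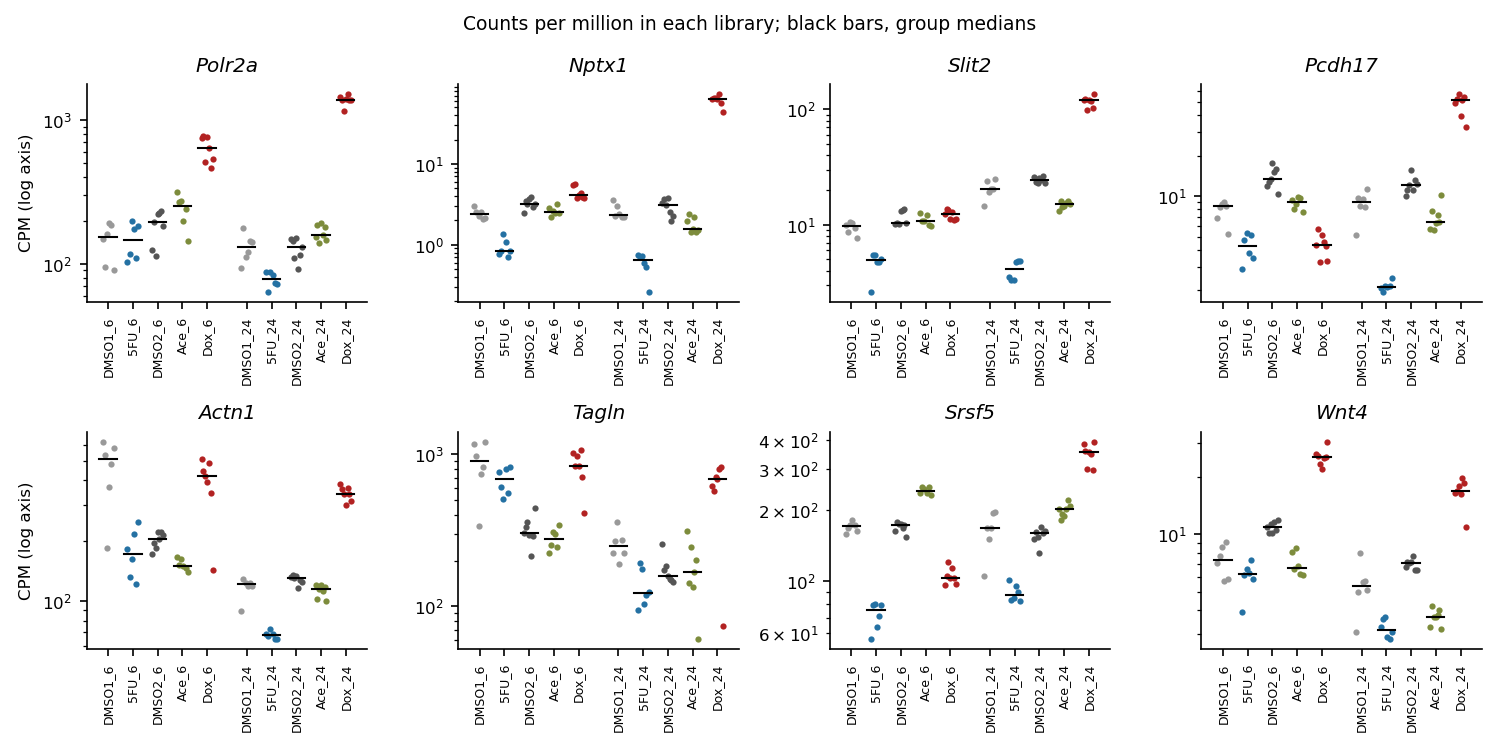
CPM in every library on a log axis for 8 of the genes in the 10 groups, with a point per library and a black bar at each group median. Polr2a, Nptx1 and Slit2 are far above their controls in Dox_24, Pcdh17 and Srsf5 lie under them in Dox_6, and Tagln and Actn1 differ between the 6-hour controls DMSO1_6 and DMSO2_6.

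Transcription factors and chromatin proteins numbered 15, with 8 higher and 2 lower in Dox at 6 h and 5 lower and 1 higher in 5FU. Epop, which links Elongin to the Polycomb repressive complex, had the highest Dox_24 ratio of all 179 genes, 27.1. Its lowest, median and highest CPM at 24 h were 1.79, 2.64 and 3.36 in DMSO2_24, 3.52, 4.3 and 4.83 in Ace_24, 48.6, 71.4 and 74.6 in Dox_24, 1.39, 3.06 and 4.36 in DMSO1_24 and 0.907, 1.7 and 1.92 in 5FU_24, where the last pair overlapped. Epop rose at 6 h in Dox by a log2 fold change of 1.96 ± 0.12 (SE, above the control median in 7 of 7 libraries, adjusted p = 2.6e-23) and in Ace by 0.95 ± 0.13 (SE, above the control median in 6 of 6 libraries, adjusted p = 5.5e-09), and its 5FU change was -0.24 ± 0.14 (SE, below the control median in 5 of 6 libraries, adjusted p = 0.14). Its 6-hour medians were 3.48 in DMSO2_6, 6.54 in Ace_6, 12.7 in Dox_6, 3.85 in DMSO1_6 and 3.1 in 5FU_6. Sall1, a zinc finger repressor, fell in Dox at 6 h with a log2 fold change of -1.09 ± 0.18 (SE, below the control median in 7 of 7 libraries, adjusted p = 2.8e-07) and in Ace with one of -0.69 ± 0.18 (SE, below the control median in 6 of 6 libraries, adjusted p = 0.0014), of which the latter was lost without library 5 of DMSO2_6 (-0.56). The 5FU change of Sall1 was -0.24 ± 0.19 (SE, below the control median in 5 of 6 libraries, adjusted p = 0.3). Its medians were 2.95 CPM in DMSO2_6 and 1.01 in Dox_6, and at 24 h 1.22 in DMSO2_24, 0.668 in Ace_24, 3.98 in Dox_24, 1.06 in DMSO1_24 and 0.581 in 5FU_24. Tcf7, a transcription factor that works with beta-catenin, rose in Dox by 0.54 ± 0.15 (SE, above the control median in 7 of 7 libraries, adjusted p = 0.001), a call that was lost with scaling by library size alone (0.38). The Tcf7 change in 5FU was -0.18 ± 0.16 (SE, below the control median in 4 of 6 libraries, adjusted p = 0.37), and its 24-hour medians were 2.71 CPM in DMSO2_24, 1.24 in Ace_24, 6.31 in Dox_24, 2.35 in DMSO1_24 and 0.997 in 5FU_24.

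Receptors and adhesion proteins numbered 11, with 5 higher and 3 lower in Dox at 6 h and 9 lower in 5FU. Pcdh17, a protocadherin, had the largest Dox decrease of the 179 genes at 6 h. At 6 h its lowest, median and highest CPM were 10.5, 13.5 and 17.8 in DMSO2_6, 7.64, 9.08 and 9.81 in Ace_6, 3.26, 4.32 and 5.75 in Dox_6, 5.23, 8.42 and 9.1 in DMSO1_6 and 2.89, 4.27 and 5.36 in 5FU_6. At 24 h they were 10, 12.2 and 15.6 in DMSO2_24, 5.62, 6.42 and 10.2 in Ace_24, 32.8, 52.2 and 57.1 in Dox_24, 5.2, 9 and 11.4 in DMSO1_24 and 1.95, 2.14 and 2.49 in 5FU_24. The Dox libraries thus lay below all their controls at 6 h and above all of them at 24 h. The 5FU libraries had lower medians at both times but overlapped their controls at 6 h. The 6-hour log2 fold changes of Pcdh17 were -1.51 ± 0.14 (SE, below the control median in 7 of 7 libraries, adjusted p = 3.6e-15) in Dox, -0.81 ± 0.15 (SE, below the control median in 6 of 6 libraries, adjusted p = 7.7e-06) in 5FU and -0.62 ± 0.13 (SE, below the control median in 6 of 6 libraries, adjusted p = 0.00013) in Ace. Its 6-hour controls differed as well, with -0.76 ± 0.14 (SE, below the control median in 6 of 6 libraries, adjusted p = 1.8e-05) in DMSO1_6 against DMSO2_6. The Dox effect minus the 5FU effect was -0.71 for Pcdh17. Cd24, a glycoprotein of the cell surface, rose in Dox at 6 h by 1.16 ± 0.13 (SE, above the control median in 7 of 7 libraries, adjusted p = 2.7e-12) and fell in 5FU with -1.05 ± 0.17 (SE, below the control median in 6 of 6 libraries, adjusted p = 2.1e-07), with medians of 4.32 CPM in DMSO2_6, 8.97 in Dox_6, 3 in DMSO1_6 and 1.46 in 5FU_6. Lrrc4, a synaptic adhesion protein, rose in Dox by 2.78 ± 0.17 (SE, above the control median in 7 of 7 libraries, adjusted p = 4.6e-23) from a median of 0.868 CPM to 5.3, and fell in Ace with -1.27 ± 0.25 (SE, below the control median in 6 of 6 libraries, adjusted p = 2.5e-05). Its 5FU decrease of -0.85 ± 0.27 (SE, below the control median in 6 of 6 libraries, adjusted p = 0.0057) was close to the threshold and was lost without any 1 of 3 libraries of 5FU_6 and 3 of DMSO1_6, over which the Lrrc4 value ran from -0.83 without library 1 of DMSO1_6 to -0.66 without library 3 of that group, with libraries 1, 2 and 3 of 5FU_6 at -0.81, -0.73 and -0.79 and library 6 of DMSO1_6 at -0.79.

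Matrix and basement membrane proteins and their enzymes were 16 genes, with 7 higher and 1 lower in Dox at 6 h and 5 lower in 5FU. Agrn encodes agrin, a large proteoglycan of basement membranes. Its 24-hour lowest, median and highest CPM were 69.5, 79.8 and 89.2 in DMSO2_24, 87, 97.7 and 112 in Ace_24, 290, 377 and 412 in Dox_24, 65.8, 79.9 and 101 in DMSO1_24 and 40.9, 47.6 and 59.7 in 5FU_24. Agrn rose at 6 h in Dox by a log2 fold change of 0.73 ± 0.10 (SE, above the control median in 7 of 7 libraries, adjusted p = 3.7e-09) and in Ace by 0.42 ± 0.11 (SE, above the control median in 6 of 6 libraries, adjusted p = 0.00083), and its 5FU change of 0.20 ± 0.11 (SE, above the control median in 3 of 6 libraries, adjusted p = 0.13) did not pass. The 6-hour medians were 55.5 in DMSO2_6, 80.4 in Ace_6, 88.8 in Dox_6, 49.1 in DMSO1_6 and 50 in 5FU_6. Plod2, an enzyme that modifies lysines of collagen, had log2 fold changes of 0.58 ± 0.06 (SE, above the control median in 7 of 7 libraries, adjusted p = 1.3e-13) in Dox and -0.82 ± 0.07 (SE, below the control median in 6 of 6 libraries, adjusted p = 4e-17) in 5FU. Fras1, a basement membrane protein, was the gene of this kind that fell in Dox, with -0.91 ± 0.22 (SE, below the control median in 7 of 7 libraries, adjusted p = 0.00017). Its medians were 4.5 CPM in DMSO2_6 and 2.32 in Dox_6, and at 24 h 4.16 in DMSO2_24, 8.62 in Dox_24, 3.69 in DMSO1_24 and 1.76 in 5FU_24. The collagens Col7a1, Col17a1 and Col24a1 were among these 16, 3 of the 37 collagen genes in the table, and over the 35 eligible ones the median ratios at 24 h were 0.675 in Dox and 0.411 in 5FU.

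Channels and transporters numbered 18, with 8 higher and 2 lower in Dox at 6 h, 8 lower in 5FU, and 4 higher and 5 lower in Ace. Slc9a5, an exchanger of sodium for protons, was higher in Dox and lower in 5FU at both times. At 6 h its lowest, median and highest CPM were 1.18, 1.48 and 1.82 in DMSO2_6, 1.69, 1.73 and 2.29 in Ace_6, 3.79, 4.35 and 5.41 in Dox_6, 1.23, 1.55 and 1.77 in DMSO1_6 and 0.473, 0.801 and 1.09 in 5FU_6. At 24 h they were 1.58, 2.03 and 2.38 in DMSO2_24, 2.74, 4.18 and 4.62 in Ace_24, 30.9, 36.8 and 55.2 in Dox_24, 1.54, 2.47 and 2.85 in DMSO1_24 and 0.677, 0.865 and 1.55 in 5FU_24. Its tested 6-hour log2 fold changes were 1.71 ± 0.14 (SE, above the control median in 7 of 7 libraries, adjusted p = 1.7e-16) in Dox and -0.85 ± 0.19 (SE, below the control median in 6 of 6 libraries, adjusted p = 0.00015) in 5FU. Slc2a13, a transporter of myo-inositol, had a course of its own. It rose in Ace by 1.37 ± 0.11 (SE, above the control median in 6 of 6 libraries, adjusted p = 8.2e-16), the largest Ace increase among the 179 genes, and fell in Dox with -0.60 ± 0.12 (SE, below the control median in 7 of 7 libraries, adjusted p = 9.7e-06) at 6 h. Its 24-hour medians were 9.62 CPM in DMSO2_24, 18 in Ace_24, 28 in Dox_24, 10.8 in DMSO1_24 and 5.52 in 5FU_24. Cbarp, a regulator of voltage-gated calcium channels, also rose in Ace at 6 h, by 0.98 ± 0.10 (SE, above the control median in 6 of 6 libraries, adjusted p = 8.4e-12), and had a median of 15 CPM in Ace_24 with 7.99 in DMSO2_24.

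Metabolic and modifying enzymes were 15 genes, with 8 higher and 1 lower in Dox at 6 h and 7 lower and 1 higher in 5FU. Nt5dc2, named for its nucleotidase domain, had a lowest, median and highest CPM at 24 h of 38.3, 44.9 and 49.1 in DMSO2_24, 45.6, 51.7 and 54.9 in Ace_24, 214, 252 and 298 in Dox_24, 16, 40.1 and 49.5 in DMSO1_24 and 7.29, 7.75 and 8.92 in 5FU_24. The low end of DMSO1_24 was library 1, and the next library held 38.8. Nt5dc2 rose in Dox at 6 h by a log2 fold change of 0.83 ± 0.10 (SE, above the control median in 7 of 7 libraries, adjusted p = 7.6e-11), with a 5FU change of -0.07 ± 0.11 (SE, below the control median in 6 of 6 libraries, adjusted p = 0.59). Ada, adenosine deaminase, rose in Dox by 1.30 ± 0.09 (SE, above the control median in 7 of 7 libraries, adjusted p = 6.6e-20), and its 24-hour medians were 5.04 CPM in DMSO2_24 and 48.8 in Dox_24. Zdhhc14, a palmitoyltransferase, fell at 6 h in Dox with -0.86 ± 0.12 (SE, below the control median in 7 of 7 libraries, adjusted p = 1.3e-09) and in 5FU with -0.95 ± 0.13 (SE, below the control median in 6 of 6 libraries, adjusted p = 3.2e-09), from medians of 7.21 CPM in DMSO2_6 and 6.04 in DMSO1_6 to 3.51 in Dox_6 and 2.81 in 5FU_6. Its 24-hour median was nevertheless 12.1 CPM in Dox_24 with 5.27 in DMSO2_24, and 2.72 in 5FU_24 with 4.64 in DMSO1_24. Lipg, endothelial lipase, rose in Dox by 1.47 ± 0.21 (SE, above the control median in 7 of 7 libraries, adjusted p = 1.4e-08) and fell in Ace with -1.15 ± 0.27 (SE, below the control median in 6 of 6 libraries, adjusted p = 0.00031). Its 5FU decrease of -0.81 ± 0.27 (SE, below the control median in 6 of 6 libraries, adjusted p = 0.0089) held with all libraries but was lost with most single libraries left out, namely 1, 2, 3, 4 or 6 of 5FU_6 (-0.82, -0.77, -0.71, -0.84 and -0.83) and 2, 3, 4 or 6 of DMSO1_6 (-0.80, -0.82, -0.80 and -0.72 for Lipg).

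Vesicle traffic, synapse and cytoskeletal filament proteins were 13 genes, with 3 higher and 1 lower in Dox at 6 h and 6 lower in 5FU. Exoc3l2, related to a subunit of the exocyst that tethers vesicles, had a lowest, median and highest CPM at 24 h of 1.83, 2.25 and 3.4 in DMSO2_24, 0.621, 0.912 and 1.55 in Ace_24, 11, 13.6 and 15.2 in Dox_24, 0.926, 1.56 and 2.19 in DMSO1_24 and 0.104, 0.225 and 0.395 in 5FU_24. Exoc3l2 fell at 6 h in 5FU with a log2 fold change of -0.93 ± 0.19 (SE, below the control median in 6 of 6 libraries, adjusted p = 2.8e-05) and in Ace with -0.83 ± 0.17 (SE, below the control median in 6 of 6 libraries, adjusted p = 4.4e-05), and its Dox change was 0.06 ± 0.15 (SE, above the control median in 2 of 7 libraries, adjusted p = 0.71). Esyt1, which joins the endoplasmic reticulum to the cell membrane, rose in Dox by 0.87 ± 0.07 (SE, above the control median in 7 of 7 libraries, adjusted p = 2.8e-17), with 24-hour medians of 58.6 CPM in DMSO2_24 and 421 in Dox_24. Rimbp3, a protein of the developing sperm head, had 1.69 ± 0.15 (SE, above the control median in 7 of 7 libraries, adjusted p = 1.8e-15) in Dox and -0.95 ± 0.20 (SE, below the control median in 6 of 6 libraries, adjusted p = 4.1e-05) in 5FU, with medians of 1.79 CPM in DMSO2_24 and 20.7 in Dox_24. Tubb3, a tubulin best known from neurons, rose in Dox by 0.61 ± 0.09 (SE, above the control median in 6 of 7 libraries, adjusted p = 4.3e-08). The 5FU change of -0.27 ± 0.10 (SE, below the control median in 6 of 6 libraries, adjusted p = 0.019) missed the threshold, and passed without library 3 of DMSO1_6 (-0.33) or without the 6 libraries that stood apart (-0.30). Krt19, a keratin of epithelial cells, fell in 5FU at 6 h with -1.93 ± 0.29 (SE, below the control median in 6 of 6 libraries, adjusted p = 8.7e-08) and in Ace with -1.07 ± 0.22 (SE, below the control median in 6 of 6 libraries, adjusted p = 4.5e-05), and its Dox change was -0.37 ± 0.20 (SE, below the control median in 7 of 7 libraries, adjusted p = 0.089). It was scarce, with medians of 0.829 CPM in DMSO1_6, 0.225 in 5FU_6, 1.72 in DMSO1_24, 0.247 in 5FU_24, 1.73 in DMSO2_24 and 3.83 in Dox_24. 2 of these belong to marker lists: Tubb3 to the Schwann and neural list (3 of 6 matched), and Krt19 to the epicardial list. The epicardial sum was 18.9 CPM in DMSO1_24, 11.6 in 5FU_24, 18.1 in DMSO2_24, 13.5 in Ace_24 and 28.7 in Dox_24, and the neural sum, in which Tubb3 is the most abundant gene, 12, 6.35, 12.5, 10.5 and 29.8 in those groups. Most of the epicardial list did not follow its sum, since the median Dox ratio at 24 h was 0.655 over its 5 eligible genes, and Krt19 and Tubb3, which were chosen for their Dox_24 levels, are counted in these sums. The part of such cells in these results was not tested.

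Another 24 genes had other or little known roles, with 14 higher and 2 lower in Dox at 6 h and 8 lower and 1 higher in 5FU. Lrrc73, a protein with leucine-rich repeats, had medians of 1.13 CPM in DMSO2_6, 3.79 in Dox_6, 1.7 in DMSO2_24 and 19.4 in Dox_24. It rose in Dox at 6 h by a log2 fold change of 1.87 ± 0.16 (SE, above the control median in 7 of 7 libraries, adjusted p = 4.7e-16), and in 5FU it changed by 0.02 ± 0.20 (SE, above the control median in 3 of 6 libraries, adjusted p = 0.95). Tlcd4, a membrane protein, had the largest Dox increase of the 179 genes at 6 h, 2.91 ± 0.19 (SE, above the control median in 7 of 7 libraries, adjusted p = 1e-21), from a median of 0.666 CPM to 3.96. Ccdc92b, a coiled-coil protein, rose in Dox by 0.82 ± 0.21 (SE, above the control median in 6 of 7 libraries, adjusted p = 0.00054). Its 5FU change of -0.84 ± 0.28 (SE, below the control median in 6 of 6 libraries, adjusted p = 0.0079) was called with all libraries and lost without library 1, 2, 4 or 6 of 5FU_6 (-0.73, -0.82, -0.80 and -0.75) or 4, 5 or 6 of DMSO1_6 (-0.70, -0.63 and -0.84 for Ccdc92b). The unnamed gene 100911692 rose in Dox by 0.95 ± 0.09 (SE, above the control median in 7 of 7 libraries, adjusted p = 6.9e-15) and fell in 5FU with -1.07 ± 0.11 (SE, below the control median in 6 of 6 libraries, adjusted p = 3.3e-13), and its medians were 8.27 CPM in DMSO2_24, 61.6 in Dox_24, 8.24 in DMSO1_24 and 4.76 in 5FU_24. The last 3 genes belong to cell division and the centriole (Pttg1, Cdkn3 and Poc1a), and of these 1 was lower in Dox and 1 in 5FU at 6 h.

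Acetaminophen shares its control libraries with doxorubicin, so the values of the 2 are given side by side and not as an overlap. At 6 h 18 of the 179 genes were higher in Ace (10.1%, with 16.5% of all genes) and 56 were lower (31.3%, with 15.2% of all genes), with a median log2 fold change of -0.25 and 0.00 over all genes. Without the 6 libraries that stood apart, 18 were higher and 69 lower. Among the 1488 genes that passed only the 5FU condition, 41.3% were lower in Ace at 6 h, and among the 1778 that passed only the Dox condition 8.72% were.

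The solvent controls were compared at 6 h because the drugs use different ones. In DMSO1_6, 16 of the 179 genes were higher than in DMSO2_6 (8.94%, with 9.87% of all genes) and 14 were lower (7.82%, with 6.6% of all genes), shares near those of all genes. Without the 6 libraries the counts were 23 and 24. The 4 with an increase of at least 1 on the log2 scale were Tagln, Lmcd1, Actn1 and Ccn1, a matricellular protein, at 1.07 ± 0.14 (SE, above the control median in 5 of 6 libraries, adjusted p = 2.9e-08). The wells of these 2 controls differed in the share of DMSO.

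The limits of the selection pass through a dense range of values. Just inside the Dox limit were Unc13d at a ratio of 2.01, Slc10a7 at 2.01 and the unnamed gene 100909655 at 2.01, and just outside it were Gpr37, barely under 2, Cyp46a1 at 1.99 and Pdgfb at 1.98. At the 5FU limit, Polr2a at 0.596, Zdhhc9 at 0.598 and Pde5a at 0.598 were inside and Dsel, barely over 0.6, and C2 and C17h6orf62, both at 0.601, were outside. The control minimum of 1 CPM was just met by Ano1, Sall1 and Rspo3 and just missed by Magel2, Edn1 and Ssmem1, whose Dox ratios were 7.06, 5.83 and 7.92. At 6 h Unc13d fell in Dox with a log2 fold change of -0.47 ± 0.13 (SE, below the control median in 7 of 7 libraries, adjusted p = 0.00065), and Slc10a7 fell in Dox with -0.59 ± 0.09 (SE, below the control median in 7 of 7 libraries, adjusted p = 6.3e-08) and in 5FU with -0.55 ± 0.10 (SE, below the control median in 6 of 6 libraries, adjusted p = 2.7e-06). Zdhhc9, a palmitoyltransferase of Ras proteins, rose in Dox by 0.59 ± 0.06 (SE, above the control median in 7 of 7 libraries, adjusted p = 1.5e-14) and fell in 5FU with -0.24 ± 0.06 (SE, below the control median in 6 of 6 libraries, adjusted p = 0.00055). Ano1, a chloride channel, fell in 5FU with -0.90 ± 0.22 (SE, below the control median in 6 of 6 libraries, adjusted p = 0.00037) and had -0.32 ± 0.18 (SE, below the control median in 7 of 7 libraries, adjusted p = 0.11) in Dox.

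In 34 hand-made lists of pathways and cell types with 619 genes, 7 of the 179 genes were found: Bmp2 and Inhba, Tcf7 and Wnt4, Slit2, Tubb3 and Krt19. The pathway of Bmp2 and Inhba had 24 of 24 genes in the table, of which 12 were higher and 6 lower in Dox at 6 h and 1 was higher and 12 lower in 5FU. The median log2 fold changes of that list were 0.24 in Dox and -0.35 in 5FU, and its Dox effect was above its 5FU effect for 16 genes and below it for 2. The 6-hour controls also differed for this list, with 9 genes higher and 1 lower in DMSO1_6 than in DMSO2_6 (9.87% and 6.6% of all genes) and a median of 0.30, and both the 5FU change and the difference are measured against DMSO1_6. Over all genes the shares were 31.5% higher and 32.7% lower in Dox, 23.4% higher and 24.5% lower in 5FU, and 22% above and 24% below 0 for the difference. The Wnt list had 23 of 25 genes in the table, with 12 higher and 5 lower in Dox and 3 higher and 6 lower in 5FU, and medians of 0.52 and -0.18. Axon guidance, the list of Slit2, had 25 of 25 genes, but mostly lower in both, with 3 higher and 17 lower in Dox and 2 higher and 13 lower in 5FU. In Ace 1 axon guidance gene was higher and 13 were lower (16.5% and 15.2% of all genes). The 6-hour controls differed for these lists too. In DMSO1_6, 1 axon guidance gene was higher and 11 were lower than in DMSO2_6, and for the Wnt list these counts were 1 and 7. Families counted by name gave few of the 179 genes: 6 of 290 solute carriers, 3 of 190 transmembrane proteins of unknown function, 2 of 66 potassium channels and 2 of 173 ubiquitin ligases.

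Symbols from RefSeq's annotation of the rat genome build GRCr8 were matched for 176 of the 179 genes, all of them protein coding, and a promoter sequence (250 bases before to 50 after the gene's start) for 141. Since fewer than 80% have one, base composition of the promoters is not compared. Motif searches on both strands describe the 141 sequences beside the 10009 promoters of all eligible genes. The CRE letters TGACGTCA were in 4 (2.84%, with 3.11% of all promoters). The AP-1 letters TGANTCA were in 4 (2.84%, with 4.65%), the CArG box, to which serum response factor binds in actin genes, in 2 (1.42%, with 1.23%), CCAAT in 51 (36.2%, with 37.4%), GGGCGG in 93 (66%, with 62.4%) and TATAAA in 16 (11.3%, with 6.68%). These shares are descriptions, and a match is neither a shown site nor a cause.

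The 6 sequences below are examples chosen after the matches were seen: both promoters with a CArG box (Rnd3 and Dgkh), and some of those with the CRE letters (Taf4b and Lmcd1), TATAAA (Polr2a) and AP-1 letters (Tiam1). They are from RefSeq GRCr8, written in the direction of the gene, with CArG box, TATAAA, CRE and AP-1 matches in capitals. Rnd3 lies at chr3:55998445-55998744, minus strand, Dgkh at chr15:60559728-60560027, minus strand, Taf4b at chr18:6227128-6227427, plus strand, Lmcd1 at chr4:146948743-146949042, plus strand, Polr2a at chr10:54977130-54977429, minus strand and Tiam1 at chr11:42646033-42646332, minus strand.
Rnd3: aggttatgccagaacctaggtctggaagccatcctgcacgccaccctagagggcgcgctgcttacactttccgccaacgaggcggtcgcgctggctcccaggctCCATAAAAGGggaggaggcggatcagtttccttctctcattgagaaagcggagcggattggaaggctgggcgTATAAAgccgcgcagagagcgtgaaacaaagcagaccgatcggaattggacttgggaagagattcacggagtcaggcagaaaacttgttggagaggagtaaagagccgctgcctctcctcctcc
Dgkh: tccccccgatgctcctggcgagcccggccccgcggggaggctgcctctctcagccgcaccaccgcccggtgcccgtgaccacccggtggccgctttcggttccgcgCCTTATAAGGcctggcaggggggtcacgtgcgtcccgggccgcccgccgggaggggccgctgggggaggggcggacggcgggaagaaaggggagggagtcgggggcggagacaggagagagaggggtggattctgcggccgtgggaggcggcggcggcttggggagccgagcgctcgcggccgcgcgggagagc
Taf4b: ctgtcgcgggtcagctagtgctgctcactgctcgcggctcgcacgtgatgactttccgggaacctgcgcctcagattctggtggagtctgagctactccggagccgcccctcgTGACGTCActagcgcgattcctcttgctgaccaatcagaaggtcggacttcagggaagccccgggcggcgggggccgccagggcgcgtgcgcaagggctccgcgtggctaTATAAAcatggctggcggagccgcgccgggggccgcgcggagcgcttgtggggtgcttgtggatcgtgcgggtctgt
Lmcd1: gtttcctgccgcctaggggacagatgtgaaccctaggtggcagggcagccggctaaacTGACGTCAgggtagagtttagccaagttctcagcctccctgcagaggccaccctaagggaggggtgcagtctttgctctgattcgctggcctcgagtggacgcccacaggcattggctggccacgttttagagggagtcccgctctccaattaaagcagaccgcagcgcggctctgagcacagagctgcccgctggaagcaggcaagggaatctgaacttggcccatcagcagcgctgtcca
Polr2a: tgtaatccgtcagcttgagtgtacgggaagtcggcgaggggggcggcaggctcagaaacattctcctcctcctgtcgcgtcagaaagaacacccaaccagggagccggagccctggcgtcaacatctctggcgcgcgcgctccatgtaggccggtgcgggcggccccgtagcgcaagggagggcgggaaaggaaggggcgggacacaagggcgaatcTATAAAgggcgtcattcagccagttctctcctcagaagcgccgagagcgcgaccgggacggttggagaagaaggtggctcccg
Tiam1: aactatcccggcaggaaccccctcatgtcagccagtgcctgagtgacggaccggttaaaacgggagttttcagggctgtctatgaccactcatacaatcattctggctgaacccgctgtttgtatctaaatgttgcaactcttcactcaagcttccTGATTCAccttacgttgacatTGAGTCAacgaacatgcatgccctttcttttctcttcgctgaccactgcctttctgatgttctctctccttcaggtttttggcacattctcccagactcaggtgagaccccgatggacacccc

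The CArG boxes begin 146 bases before the start in Rnd3 and 144 in Dgkh, which both rose in Dox and fell in 5FU at 6 h. The CRE letters begin 137 bases before the start in Taf4b and 192 in Lmcd1, and TATAAA begins 33 bases before the start in Polr2a. Tiam1, which fell in both drugs at 6 h, holds AP-1 letters at 94 and 73 bases before its start. By position the genes were spread over the genome, with 22 on chromosome 1, 18 on chromosome 10, 16 each on chromosomes 3 and 7, and 7 on the X chromosome.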

How the data were processed

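RNA was measured in 65 libraries of primary neonatal rat cardiomyocytes, in 10 groups of drug or solvent and time. The authors used kallisto 0.46.0 and summed the transcripts to genes, and the deposited table holds estimated counts per gene (the expected counts of kallisto, rounded) with genes of low counts already removed. No gene was removed here, so all 14554 were tested. Library totals of 14332827 to 25738297 counts put 1 CPM at about 14 to 26 counts.

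Levels are CPM by column total. The genes and lists were chosen with earlier results of these data known, and the kinds were sorted by hand from general knowledge after the genes were seen. Tests used edgeR 4.0.16 in R 4.3.3, with TMM scaling, a quasi-likelihood fit over all libraries with a mean per group, and Benjamini-Hochberg adjustment over all genes at 0.01. The 6-hour contrasts were each drug against its control, DMSO1 against DMSO2, and the Dox effect minus the 5FU effect. Standard errors are of the log2 fold change. Python 3.11.15 with pandas 2.3.3 and numpy 2.4.6 did the rest. The scripts' calls were tested on simulated data.

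Genes named in the text are the 12 with the largest difference of 24-hour log2 ratios, the 6 with the highest mean CPM, up to 12 that were higher in Dox and lower in 5FU at 6 h by the smaller absolute change, up to 6 that were lower in Dox or higher in 5FU at 6 h, those next to the limits of the choice, and members of the lists. Others were named for their kind, after their values were seen. Alternatives were DESeq2 1.42.0 and its size factors, library size alone, the compared groups alone, other thresholds, means for medians, and each library left out.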

Additional observations from a re-analysis of the deposited data

Results flagged for a closer look

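For 38 of the named genes, each group was searched for a library whose gap to the nearest other is large against the range of the group. Chance gives about 1 in 20 groups, and 29 of 380 combinations of gene and group were found. In 5FU_6 library 1 had Vegfa at 299 CPM (nearest other 140), Slit2 at 2.6 (4.7) and Inhba at 6.15 (4.79). In DMSO1_6 library 4 had Vegfa at 254 (168). In DMSO2_6 library 6 had Tmeff2 at 1.47 (0.778) and Lrrc73 at 1.79 (1.15). In Dox_6 library 4 had Vegfa at 587 (293) and Cd24 at 5.15 (8.53), library 3 had Rimbp3 at 4.51 (6.79), library 7 had Ccdc92b at 1.17 (2.35) and library 6 had Zdhhc14 at 2.35 (3.44). In Ace_6 library 2 had Slc9a5 at 2.29 (1.78) and library 1 had Bmp2 at 6.15 (5.39).

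At 24 h, library 7 of Dox_24 had Tagln at 74.8 CPM (nearest other 571), Slc9a5 at 55.2 (41), Epop at 48.6 (68.9), Dok2 at 33.9 (27.8) and Wnt4 at 10.9 (16.2), and library 3 had Polr2a at 1169 (1380). In DMSO1_24 library 1 had Actn1 at 89.2 (119) and Nt5dc2 at 16 (38.8), and library 3 had Rspo3 at 1.69 (1.18). In DMSO2_24 library 1 had Tagln at 256 (185), and library 4 had Exoc3l2 at 3.4 (2.37) and Adm2 at 2.22 (1.34). In 5FU_24 library 3 had Rspo3 at 1.07 (0.584) and library 1 had Tcf7 at 1.35 (1.07). In Ace_24 library 2 had Dok2 at 1.88 (2.88) and library 7 had Inhba at 8.16 (7.19).

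The effects of Dox and 5FU at 6 h differed for 127 of the 179 genes in edgeR's test of the difference, 123 with the higher value in Dox and 4 with the higher value in 5FU.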

How the results depend on the processing

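Of the alternatives for the counts of genes, 256 values were within 1.5 times the reported count, 5 were higher and 18 lower. For single named genes, 7565 values kept their side of the threshold, 101 newly passed it and 206 no longer passed it. None changed direction where the reported or the alternative value passed. Changes of direction among values that passed in neither were not counted. Where values changed and nothing else is said, the cause was not tested.

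A minimum log2 fold change of 1 leaves fewer genes by construction: in Dox 39 higher and 2 lower, in 5FU 0 higher (5 by edgeR without the minimum) and 31 lower, in Ace 1 higher and 7 lower, in DMSO1 against DMSO2 4 higher and 0 lower, and for the difference 77 above and 0 below. An adjusted p below 0.1 gave 8 higher in 5FU, and 28 higher and 37 lower in DMSO1. The count higher in 5FU was 2 with library size only and 2 with the compared groups only. Without the 6 libraries that stood apart, chosen after seeing the data, 24 were lower in DMSO1. The choice of genes gave 62 with stricter ratios, 551 with looser ratios and 85 with a minimum of 5 CPM. It gave 164 with means, 156 with TMM scaling and 168 with DESeq2 size factors.

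With any 1 library omitted there were 95 to 98 higher and 18 to 22 lower in Dox, 2 to 6 and 84 to 92 in 5FU, 15 to 19 and 47 to 55 in Ace, 12 to 21 and 11 to 17 in DMSO1, and 118 to 124 above and 2 to 5 below for the difference. The lowest counts higher in 5FU were 3 without library 1 of 5FU_6 and 2 without library 1 of DMSO1_6, and the difference had 2 below without library 3 of 5FU_6 or library 5 of DMSO2_6. The choice gave 171 to 196 genes, and 141 of the 179 were kept every time.

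Scaling by library size moved the median of all genes in Dox at 6 h to -0.15 and that of the 179 genes to 0.25. No paired analysis was possible because the columns carry no replicate numbers that link the groups. Depth limits the scarce genes: 42 of the 179 had fewer than 10 counts in a library. All libraries of a group come from a shared preparation, so the spread between preparations was not measured.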
